A study of Mus musculus with 9 samples.

Results

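The insulin-like growth factor (IGF) axis was examined in liver fibroblasts through 10 genes, taken from the 24453 genes of the expression table by their symbols: the ligands Igf1 and Igf2, the receptor Igf1r and the binding proteins Igfbp1 to Igfbp7. All 10 had a row, and all 10 passed the filter on low counts that kept 13651 genes for testing. Igf1 and Igf2 are secreted growth factors that act through the tyrosine kinase receptor Igf1r. Most IGF in blood and tissue is held by binding proteins, which lengthen its life, limit its access to the receptor or, at the cell surface and in matrix, keep it close to the receptor. Proteases such as Pappa cut binding proteins and free the ligand. In the liver, hepatocytes are the known main source of circulating Igf1 and of Igfbp1 and Igfbp2, while stellate cells and endothelial cells are known to make Igfbp3, and Igfbp7 binds IGFs only weakly.

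The study compared 3 groups of 3 libraries each, all labelled as C57BL/6J in strain. HSC were hepatic stellate cells from untreated wild-type livers, isolated by density gradient without a sort. CCl4-fib were CD45-, GFP+ cells sorted from Col1a2-GFP Tg mice that had received carbon tetrachloride, a liver toxin, 2 times per week for 8 weeks. NASH-fib were CD45-, GFP+ cells sorted from MC-COL mice, which carry Col1a2-GFP Tg and lack the melanocortin 4 receptor (MC4R-KO), after 20 weeks of Western diet begun in male mice at 8 weeks of age. The transgene is driven by a collagen α2(I) promoter, so the sort itself chose cells by collagen promoter activity, and each library pooled cells of 3 to 5 mice. Disease, genotype, transgene and isolation method therefore cannot be told apart between HSC and either fibroblast group, nor MC4R loss and diet from each other in NASH-fib. Between NASH-fib and CCl4-fib, the toxin, Western diet, MC4R loss and length of treatment (20 against 8 weeks) cannot be told apart either.

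The libraries held 3071070 to 5634273 exon reads, and a value corresponding to 3 reads ranged from 2.38 to 4.37 normalized reads. Acta2, the smooth muscle actin of activated stellate cells, was 6.81 ± 0.38 higher in NASH-fib and 6.57 ± 0.38 higher in CCl4-fib than in HSC on the log2 scale (± SE, both called). Col1a1 and Col1a2 were also called higher than HSC, by 2.75 ± 0.35 and 1.98 ± 0.38 in NASH-fib and 3.99 ± 0.35 and 3.36 ± 0.38 in CCl4-fib. Both were called lower in NASH-fib than in CCl4-fib, by -1.25 ± 0.35 and -1.39 ± 0.38 (limma adjusted p = 0.0462 and 0.0445). Acta2 did not pass there (0.24 ± 0.38). Mc4r, the gene knocked out in the NASH-fib mice, was at 4, 13 and 0 reads in their libraries. It was at 0 in the other groups, so its loss could not be checked here. Summed levels of 15 hepatocyte markers were 28127 to 61604 normalized reads in HSC, 2577 to 3771 in CCl4-fib and 9414 to 38204 in NASH-fib. The summed levels of 10 sinusoidal endothelial markers were 7907 to 16945, 298 to 310 and 1201 to 3928 in the same order, and no hepatocyte or endothelial marker was at or under 3 reads throughout a group. The hepatocyte sums thus set CCl4-fib apart but overlapped between HSC and NASH-fib, while the endothelial sums did not overlap between any groups. Fewer cells of a type cannot be told apart from less RNA per cell in such bulk libraries.

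The promoters of the binding proteins on which the comparisons turned are given first, as the 250 bases before the transcription start in RefSeq on GRCm38.p6 (the mm10 build of the table). They are shown because Igfbp5 and Igfbp6 were called higher than HSC in both fibroblast groups, Igfbp3 lower in both and Igfbp1 lower in CCl4-fib. The stretches are chr1:72874866-72875115 on the minus strand for Igfbp5, chr15:102143936-102144185 on the plus strand for Igfbp6 and chr11:7213924-7214173 on the minus strand for Igfbp3. For Igfbp1 the last 150 bases are given, chr11:7197637-7197786 on the plus strand.
Igfbp5: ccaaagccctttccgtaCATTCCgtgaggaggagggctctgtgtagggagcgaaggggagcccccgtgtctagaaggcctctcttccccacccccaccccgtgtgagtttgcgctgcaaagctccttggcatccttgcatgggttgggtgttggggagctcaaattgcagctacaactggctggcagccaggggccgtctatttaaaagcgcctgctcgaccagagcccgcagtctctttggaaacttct
Igfbp6: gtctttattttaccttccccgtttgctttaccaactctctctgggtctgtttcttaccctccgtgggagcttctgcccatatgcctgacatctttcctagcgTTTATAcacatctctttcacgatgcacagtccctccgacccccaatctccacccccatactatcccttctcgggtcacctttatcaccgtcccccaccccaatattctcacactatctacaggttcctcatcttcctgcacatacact
Igfbp3: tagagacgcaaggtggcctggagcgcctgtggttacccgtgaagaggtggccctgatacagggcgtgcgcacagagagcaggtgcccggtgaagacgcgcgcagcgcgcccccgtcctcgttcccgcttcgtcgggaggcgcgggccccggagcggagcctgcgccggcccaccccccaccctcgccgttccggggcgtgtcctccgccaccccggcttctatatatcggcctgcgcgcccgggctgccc
Igfbp1: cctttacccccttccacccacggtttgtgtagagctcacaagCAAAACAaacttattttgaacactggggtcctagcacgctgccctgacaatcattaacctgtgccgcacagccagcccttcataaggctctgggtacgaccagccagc

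Capitals mark matches, on either strand, to 4 motifs searched: GGAATG (bound by TEAD factors), TGANTCA (AP-1), TATAAA (the TATA box) and CAAAACA (the core of the insulin response element, bound by FOXO factors). Each stretch held at most 1 match, so no matches overlapped. The Igfbp5 promoter held 1 GGAATG match on the other strand, 233 bases before the start, and 12.6% of 32851 RefSeq promoters held a match on either strand over the same 250 bases. Igfbp6 held TATAAA on the other strand, 148 bases before the start (12.4% of promoters held it), and Igfbp1 held CAAAACA at 108 bases before it (5.56%). Igfbp3 held none of the 4, and TGANTCA, found in 6.75% of promoters, was in none of these stretches. The GC content was 73.2% before Igfbp3, 58.8% before Igfbp5 and 49.6% before Igfbp6, against a median of 52.4% over all promoters. The windows listed for Igf1 and Igfbp4 begin at other starts than the entries counted here, and no sequence is shown for them.

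In 2 places, members are neighbours in the genome and point toward each other. On chromosome 1, Igfbp2 (72824480 to 72852471, plus strand) ends 5593 bases from the end of Igfbp5 (72858065 to 72874865, minus strand). On chromosome 11, Igfbp1 (7197787 to 7202546, plus strand) ends 3544 bases from Igfbp3 (7206091 to 7213923, minus strand). The other members do not adjoin one another, with Igf1 on chromosome 10 (87859052 to 87937047), Igf2 and Igf1r on chromosome 7 (142650768 to 142657496 and 67952257 to 68233667), Igfbp4 on chromosome 11 (99041260 to 99052643), Igfbp6 on chromosome 15 (102144186 to 102149512) and Igfbp7 on chromosome 5 (77349240 to 77408045). Reads were counted without strand. Igf2 shares 3596 exonic bases with the same-strand transcript Gm49394 in GENCODE vM21, and Igfbp7 shares 85 with Polr2b on the other strand, so the values of Igf2 and Igfbp7 are uncertain to that extent.

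In normalized reads, which are not corrected for exonic length, Igfbp5 had the highest value of the 10 members in each NASH-fib library. Its 3 groups did not overlap. Per kilobase, scaled to equal library totals, Igfbp7 was above Igfbp5 in NASH-fib 1 (541 against 414) and below it in NASH-fib 2 and 3. Igfbp5 is a secreted binding protein that also lodges in extracellular matrix. Its values were 1717, 671 and 753 normalized reads in HSC 1 to 3 and 4553, 3699 and 3293 in CCl4-fib, while NASH-fib had 10838, 11543 and 13058. Every NASH-fib library lay above every CCl4-fib library, which in turn lay above every HSC library. The log2 difference, on log2(value + 1), was 3.62 ± 0.39 (SE), or 11.3 times on the means, for NASH-fib against HSC, with a limma adjusted p of 0.000178. For CCl4-fib against HSC it was 2.0 ± 0.39 (limma adjusted p = 0.00358). For NASH-fib against CCl4-fib it was 1.63 ± 0.39, 3.07 times on the means, with a limma adjusted p of 0.0280.

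The first 2 of these calls held in all 9 fits that left out 1 library. The difference between the fibroblast groups kept a log2 size of 1.52 to 1.75 in those fits, but its limma adjusted p rose to between 0.0518 and 0.111 without any 1 of the CCl4-fib libraries or without NASH-fib 1 or 3. Libraries whose names begin with the same date-like label gave the same order. HSC 2, CCl4-fib 1 and NASH-fib 1 share 1 label and had 671, 4553 and 10838. HSC 3 and CCl4-fib 2 share another, with 753 and 3699, and CCl4-fib 3 had 3293 beside 11543 and 13058 in NASH-fib 2 and 3. The deepest Igfbp5 coverage was 2.27 counted reads per exonic base, where at most 3 reads per position entered the count, so the highest values can only be understated by that limit. Mesothelial markers, a cell type known to make Igfbp5, summed to 606 to 961 in HSC, 15652 to 21913 in CCl4-fib and 24768 to 31366 in NASH-fib, with none of the 6 at or under 3 reads throughout a group. Between the fibroblast groups the 6 did not move together: Gpm6a had 6053 to 7605 in CCl4-fib and 11014 to 21261 in NASH-fib, while Wt1 had 860 to 1649 and 379 to 466, and Upk3b 1196 to 3916 and 141 to 965. Cholangiocyte markers summed to 72.5 to 226, 3488 to 4778 and 6088 to 11854 in HSC, CCl4-fib and NASH-fib, most of the last being Spp1 (4847 to 10729), while Krt19 was at 771 to 2699 in CCl4-fib and 53.0 to 469 in NASH-fib. The part of either cell type in the Igfbp5 difference was not tested.

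**Figure D1:**
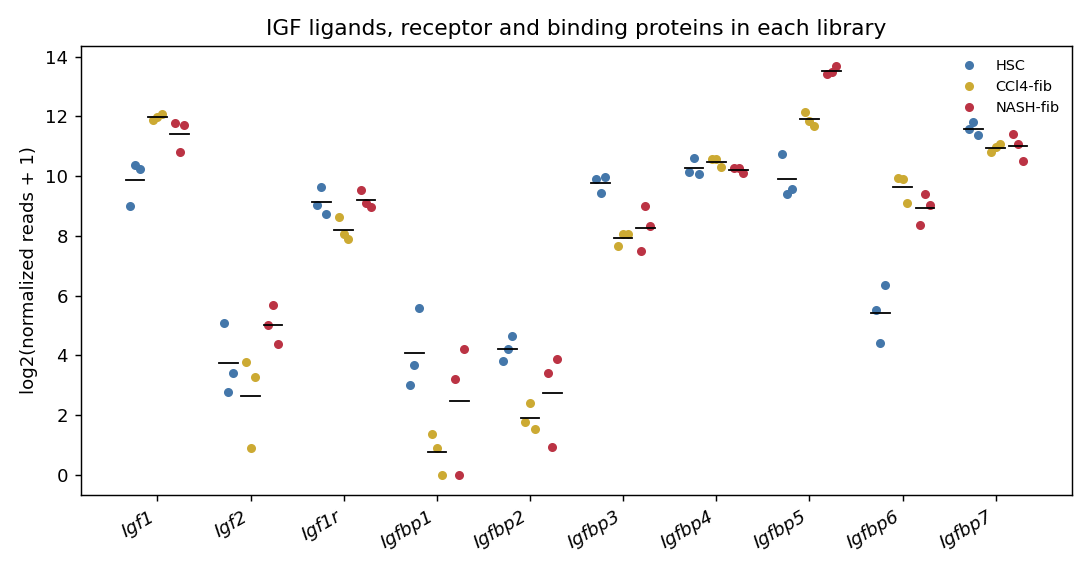
Level of each member in the 9 libraries, as log2 of normalized reads plus 1 (vertical axis), with 1 point per library, colors for HSC, CCl4-fib and NASH-fib, and lines at the means of the log2 values. Igfbp5 separates the 3 groups, from 671 to 1717 normalized reads in HSC to 10838 to 13058 in NASH-fib, while Igfbp4 overlaps between NASH-fib and HSC.

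Igfbp6, which binds Igf2 in preference to Igf1, was the member with the largest rise in CCl4-fib. HSC held 44.4, 20.4 and 81.3 normalized reads, CCl4-fib held 968, 956 and 550, and NASH-fib held 325, 678 and 525. Both fibroblast groups lay entirely above HSC and overlapped each other. The log2 difference was 4.21 ± 0.52 for CCl4-fib against HSC (limma adjusted p = 0.000256) and 3.5 ± 0.52 for NASH-fib against HSC (limma adjusted p = 0.00124), and both calls held without any 1 library. Between the fibroblast groups it was -0.71 with a 95% interval of -1.86 to 0.43, which did not pass the test. Within the shared date-like labels, HSC 2, CCl4-fib 1 and NASH-fib 1 had 20.4, 968 and 325, and HSC 3 and CCl4-fib 2 had 81.3 and 956. Under the third label CCl4-fib 3 had 550, between NASH-fib 2 at 678 and NASH-fib 3 at 525. Portal fibroblast markers summed to 178 to 221 in HSC, 8781 to 11326 in CCl4-fib and 5979 to 11792 in NASH-fib, with 2 of the 8 (Clec3b and Pi16) at or under 3 reads in HSC. Between the fibroblast groups they did not move together. Entpd2 had 259 to 708 in CCl4-fib and 62.5 to 138 in NASH-fib, and Eln 882 to 1273 and 303 to 614, while the others overlapped. The part of portal fibroblast RNA in the Igfbp6 level was not tested.

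Igfbp3, the main carrier of IGF in blood, moved the other way. Its values were 953, 692 and 990 normalized reads in HSC and 202, 265 and 265 in CCl4-fib, while NASH-fib had 179, 509 and 322. Every fibroblast library lay below every HSC library, and the 2 fibroblast groups overlapped. Igfbp3 fell by 1.84 on the log2 scale in CCl4-fib against HSC (SE 0.41, limma adjusted p = 0.00727), a call kept in all 9 fits that left out 1 library. In NASH-fib against HSC it fell by 1.49 (SE 0.41, limma adjusted p = 0.0363). That call was lost in 7 of the 9 such fits, with limma adjusted p between 0.0544 and 0.118 without HSC 1 or 3, NASH-fib 1 or 3 or any 1 CCl4-fib library, while the log2 difference stayed between -1.85 and -1.10. The endothelial marker sum was highest in HSC, as was that of 10 quiescent stellate cell markers (29671 to 37656 in HSC, 4464 to 7642 in CCl4-fib and 1747 to 4966 in NASH-fib), and the part of either in the Igfbp3 fall was not tested.

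The ratio of Igfbp5 to Igfbp3, both per kilobase, moved with the groups. It was 0.75, 0.40 and 0.32 in HSC and 9.40, 5.80 and 5.17 in CCl4-fib, while NASH-fib had 25.2, 9.45 and 16.9. All fibroblast libraries lay above 5 and all HSC libraries below 1.

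Igf1, the main ligand, was also higher in both fibroblast groups. The HSC libraries held 507, 1321 and 1194 normalized reads, CCl4-fib held 3747, 4045 and 4335, and NASH-fib held 3468, 1771 and 3323. The groups did not overlap in any of the 3 comparisons, with CCl4-fib highest and NASH-fib between. Against HSC, Igf1 rose by 2.12 ± 0.43 on the log2 scale in CCl4-fib (limma adjusted p = 0.00432), and this call held without any 1 library. It rose by 1.56 ± 0.43 in NASH-fib (limma adjusted p = 0.0366). The NASH-fib call was lost in 6 of 9 fits that left out 1 library, with limma adjusted p between 0.0606 and 0.129 without HSC 1, NASH-fib 1 or 3 or any 1 CCl4-fib library, and a log2 difference of 1.12 to 1.87 over the 9. edgeR gave 1.59 with an adjusted p of 0.0527. NASH-fib against CCl4-fib gave -0.56 (95% interval -1.51 to 0.38, limma adjusted p = 0.410), so the fibroblast groups were not shown to differ.

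The hepatocyte marker sum was lowest in CCl4-fib, where Igf1 was highest, and HSC 3, with the highest marker sum of 61604, had 1194 normalized reads of Igf1. Not every marker took the order of the sum, since Apoa1, Ahsg and Ass1 overlapped between CCl4-fib and NASH-fib. Apoa1 had 149 to 225 in CCl4-fib and 34.0 to 222 in NASH-fib, and Ahsg 321 to 414 and 292 to 1723. With the hepatocyte marker level as a term, Igf1 was not called in CCl4-fib against HSC (3.72, limma adjusted p = 0.114). That term can hardly be told apart from the group there, and the part of hepatocyte RNA in the Igf1 level was not tested. Among libraries sharing a date-like label, Igf1 was 1321, 3747 and 3468 in HSC 2, CCl4-fib 1 and NASH-fib 1, and 1194 and 4045 in HSC 3 and CCl4-fib 2. CCl4-fib 3 had 4335 beside 1771 and 3323 in NASH-fib 2 and 3. Activated fibroblast markers summed to 6764 to 12067 in HSC, 50998 to 57347 in CCl4-fib and 29058 to 33282 in NASH-fib, the same order of groups as Igf1. Col1a1, Col1a2 and Col3a1 took that order without overlap, but not all listed markers did. Postn was highest in HSC (2971 to 5577, against 1435 to 2159 in CCl4-fib and 908 to 2353 in NASH-fib). Acta2 had 5464 to 6985 in CCl4-fib and 5300 to 8983 in NASH-fib. The part of activated fibroblast RNA in the Igf1 level was not tested.

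Igf2, the fetal ligand, was scarce in all 3 groups. It had 32.7, 5.82 and 9.56 normalized reads in HSC and 12.7, 0.85 and 8.59 in CCl4-fib, while NASH-fib had 31.3, 49.9 and 19.7. These stand for 1 to 56 reads per library. NASH-fib lay entirely above CCl4-fib and overlapped HSC. The log2 difference was 2.37 ± 0.88 against CCl4-fib (limma adjusted p = 0.109) and 1.27 ± 0.88 against HSC (limma adjusted p = 0.484), so no comparison passed the test.

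Igf1r, the receptor for both ligands, was lowest in CCl4-fib. Values were 525, 786 and 423 normalized reads in HSC and 399, 266 and 239 in CCl4-fib, while NASH-fib had 738, 553 and 497. CCl4-fib lay entirely below both other groups, which overlapped each other. The log2 difference was -0.93 ± 0.36 for CCl4-fib against HSC (limma adjusted p = 0.0823) and 1.0 ± 0.36 for NASH-fib against CCl4-fib (limma adjusted p = 0.104). Neither passed the test, though DESeq2 called the second, at 1.17 with an adjusted p of 0.0420. NASH-fib against HSC gave 0.07 with a 95% interval of -0.73 to 0.88.

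Igfbp1, which insulin represses in hepatocytes, and Igfbp2 were both scarce. Igfbp1 had 6, 8 and 39 reads in HSC and 2, 1 and 0 in CCl4-fib, while NASH-fib had 6, 0 and 18. The 0 reads in CCl4-fib 3 and NASH-fib 2 allow values of up to 2.86 and 2.67 normalized reads. Pooled over libraries, its rate was 25.9 times as high in HSC (53 of 10637133 reads) as in CCl4-fib (3 of 15579663), with an exact 95% interval of 8.39 to 129 that covers counting error only. HSC 3 gave 39 of the 53 reads, and without it, an alternative chosen after seeing the data, the ratio was 10.5 (2.94 to 57.2). The gene was called lower in CCl4-fib than in HSC, by -3.33 ± 1.12 on the log2 scale (limma adjusted p = 0.0480), and this call was lost without any 1 of the 6 HSC and CCl4-fib libraries (limma adjusted p = 0.0605 to 0.136). Igfbp2 had 12.9, 17.5 and 23.9 normalized reads in HSC and 2.38, 4.25 and 1.91 in CCl4-fib, while NASH-fib had 9.52, 0.89 and 13.8. CCl4-fib lay entirely below HSC, by -2.32 ± 0.82 on the log2 scale, which did not pass (limma adjusted p = 0.0581).

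HSC 3 was highest in Igfbp1, in Igfbp2 and in the hepatocyte marker sum, and NASH-fib 2, with the lowest sum of its group (9414 against 32908 and 38204), was lowest of its group in both genes. In CCl4-fib the reads were too few to rank libraries. Igfbp2 had 3, 5 and 2 reads in CCl4-fib 1 to 3, where CCl4-fib 2 had the lowest sum of all (2577). The Igfbp2 value of NASH-fib 2 (0.89) stands for 1 read. The part of hepatocyte RNA in either gene was not tested.

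**Figure D2:**
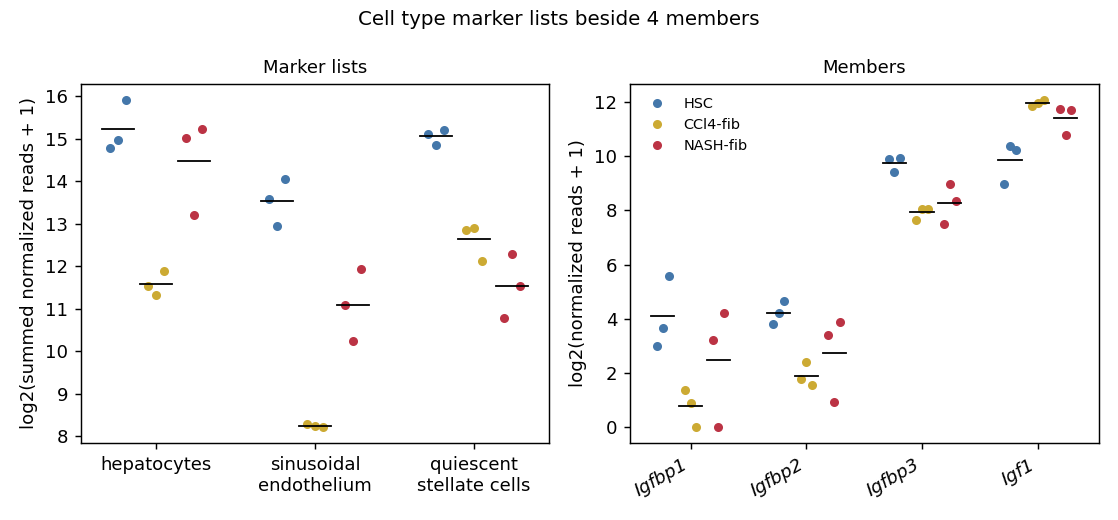
Left, log2 of summed normalized reads plus 1 of hepatocyte, sinusoidal endothelial and quiescent stellate cell marker lists in each library. Right, log2 of normalized reads plus 1 of Igfbp1, Igfbp2, Igfbp3 and Igf1. The hepatocyte marker sum is lowest in the 3 CCl4-fib libraries (2577 to 3771), where Igfbp1 had at most 2 reads and Igf1 was highest. The part of hepatocyte RNA in these levels was not tested.

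Igfbp4 and Igfbp7 were abundant in all libraries and did not pass the test in any comparison. Igfbp4, a binding protein that restrains IGF until Pappa cuts it, ranged from 1068 to 1549 normalized reads in HSC, 1264 to 1521 in CCl4-fib and 1111 to 1248 in NASH-fib. NASH-fib lay just below CCl4-fib without overlap, and the 3 intervals of its log2 difference lay between -0.90 and 0.86. Igfbp7 ranged from 2664 to 3549 in HSC, 1793 to 2145 in CCl4-fib and 1444 to 2693 in NASH-fib. CCl4-fib lay entirely below HSC in Igfbp7, by -0.63 ± 0.32 (limma adjusted p = 0.174), and NASH-fib overlapped HSC slightly, at -0.59 ± 0.32 (limma adjusted p = 0.344). Its deepest coverage, 2.32 counted reads per base, was also close to the limit of 3 per position.

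**Figure D3:**
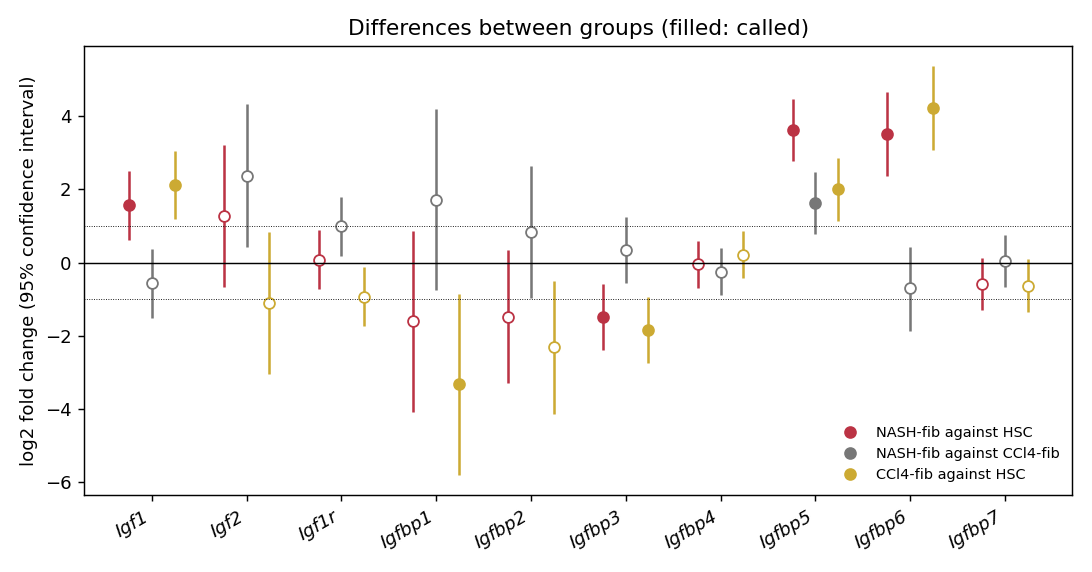
Log2 fold change of each member in the 3 comparisons (vertical axis; points are fitted values, bars 95% confidence intervals, filled points passed the test, dotted lines a log2 size of 1). Igfbp5 is filled in all 3 comparisons, from 1.63 to 3.62, and Igfbp3 is filled below 0 against HSC in both fibroblast groups.

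Counted together, 3 of the 10 members were called higher (Igf1, Igfbp5 and Igfbp6) and 1 lower (Igfbp3) in NASH-fib than in HSC, by a log2 difference of at least 1 and an adjusted p under 0.05. Over all 13651 genes, 8.23% were called higher and 4.3% lower in this comparison. For CCl4-fib against HSC, 3 members were called higher and 2 lower (Igfbp1 and Igfbp3), beside 16.2% and 11.7% of all genes. For NASH-fib against CCl4-fib, Igfbp5 alone was called higher, beside 4.97% of genes, and no member was called lower, beside 5.66%. None of the members had an unadjusted p under 0.05 in the lower direction there with limma, and neither DESeq2 nor edgeR called one lower. Each group serves in 2 of the comparisons, so their calls are not independent.

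The hepatocyte marker sums of CCl4-fib do not overlap those of the other groups, so that a fit with the marker level as a term can hardly tell the 2 apart in comparisons with CCl4-fib. In NASH-fib against HSC, Igf1, Igfbp5 and Igfbp6 stayed called with that term, at log2 differences of 1.9, 3.5 and 3.58. Limma called no member in the comparisons with CCl4-fib, with 3 members at an unadjusted p under 0.05 in each. The log2 difference of Igfbp5 in NASH-fib against CCl4-fib was then 2.07, and against HSC those of Igf1, Igfbp3, Igfbp5 and Igfbp6 in CCl4-fib were 3.72, -2.33, 1.43 and 4.56. That of Igfbp1 changed sign, to 2.36 (limma adjusted p = 0.603). With the date-like label as a term, Igfbp5 and Igfbp6 stayed called in NASH-fib against HSC, while Igf1 (1.20, limma adjusted p = 0.327) and Igfbp3 (-1.68, limma adjusted p = 0.134) were not.

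Groups did not overlap for 4 members in NASH-fib against HSC (24.4% of all genes), 5 in NASH-fib against CCl4-fib (39.1%) and 8 in CCl4-fib against HSC (48.6%). The median log2 difference of the 10 members was 0.01, 0.59 and -0.78 in these comparisons, where the median of all genes was -0.02, -0.11 and 0.18. With the scaling of edgeR or DESeq2 the median of all genes in NASH-fib against CCl4-fib moved up by 0.25 and 0.23, and the called genes divided into 802 higher and 563 lower with edgeR, against 678 and 773 with limma. Igfbp5 stayed called under both.

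Per kilobase, the levels of the 10 genes took a different order in each group. Levels were expressed as RPKM, reads per kilobase of exon scaled to equal library totals. In HSC the order was Igfbp7 (618 ± 89.5 RPKM, SD, n = 3), Igfbp4 (136 ± 28.4), Igfbp3 (80.6 ± 14.9), Igfbp5 (40.0 ± 22.2), Igf1 (31.7 ± 13.8) and Igf1r (10.8 ± 3.5), with Igfbp6, Igfbp1, Igfbp2 and Igf2 under 9. Ranges of Igfbp3 and Igfbp5, of Igfbp5 and Igf1, and of each neighbouring pair from Igf1r to Igfbp2 overlapped. In CCl4-fib, Igfbp7 led with 399 ± 35.7, followed by Igfbp4 (155 ± 15.7), Igfbp5 (147 ± 24.6), Igfbp6 (144 ± 41.4) and Igf1 (127 ± 9.24), whose neighbouring ranges overlapped, and then Igfbp3 at 22.4 ± 3.38. In NASH-fib, Igfbp5 (452 ± 43.4) and Igfbp7 (422 ± 126) came first with overlapping ranges, above Igfbp4 (129 ± 7.86), Igf1 (89.7 ± 29.6), Igfbp6 (88.7 ± 30.8) and Igfbp3 (30.9 ± 15.2).

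As shares of the summed RPKM of the 7 binding proteins, Igfbp7 made up 69.3 ± 3.07% in HSC, 46.1 ± 6.24% in CCl4-fib and 37.2 ± 9.18% in NASH-fib (SD, n = 3). Igfbp5 went from 4.53 ± 2.49% to 16.9 ± 2.34% and 40.4 ± 6.81%. Its lowest share in NASH-fib, 35.5%, lay above its highest in CCl4-fib, 19.6%, and that group's lowest, 15.5%, lay above the highest in HSC, 7.35%. Igfbp3 made up 9.23 ± 2.51%, 2.59 ± 0.46% and 2.75 ± 1.29%, and Igfbp6 1.0 ± 0.72%, 16.4 ± 4.03% and 7.91 ± 2.72%. The sum itself was 889 ± 91.4 RPKM in HSC, 868 ± 46.7 in CCl4-fib and 1126 ± 78.0 in NASH-fib. With 3 libraries against 3, an exact permutation test cannot give a p under 0.1, so shares are described without a test.

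The sum of binding proteins per unit of Igf1 was lowest in CCl4-fib. It was 56.1, 23.6 and 21.2 in HSC and 7.54, 7.10 and 5.98 in CCl4-fib, while NASH-fib had 10.7, 21.1 and 9.92. CCl4-fib lay below both other groups, and NASH-fib, at most 21.12, lay just below the lowest HSC library at 21.21.

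**Figure D4:**
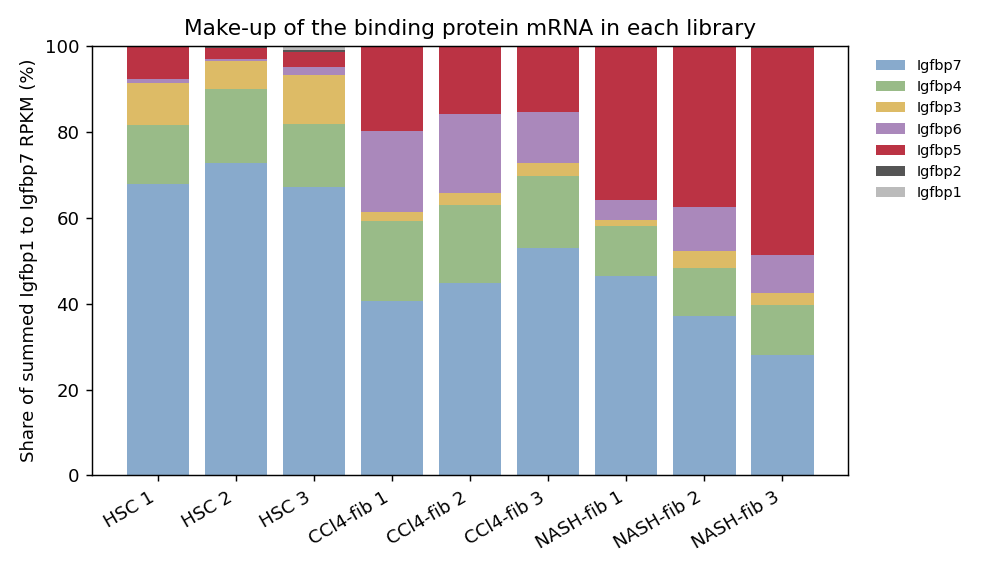
Share of each binding protein in the summed RPKM of Igfbp1 to Igfbp7 (vertical axis, %), 1 stacked bar per library. Igfbp7 takes 67.2 to 72.9% in the 3 HSC libraries, and Igfbp5 grows to 35.5 to 48.2% in NASH-fib.

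Of 50 further genes of the IGF axis, 41 were tested. In NASH-fib against HSC 8 were called higher and none lower, where 8.23% and 4.3% of all genes were. With limma, 3 had an unadjusted p under 0.05 in the lower direction, and DESeq2 and edgeR also called none lower. In CCl4-fib against HSC 11 were higher and 6 lower (16.2% and 11.7% of all genes), and in NASH-fib against CCl4-fib 2 were higher and 5 lower (4.97% and 5.66%). The median log2 difference of the 41 was 0.03, 0.25 and -0.11, beside -0.02, 0.18 and -0.11 over all genes.

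The proteases that cut binding proteins, and the stanniocalcins that inhibit Pappa, are grouped here: of 5 tested, 4 rose in NASH-fib and 4 in CCl4-fib against HSC, where 8.23% and 16.2% of all genes did. Pappa, which cuts Igfbp4 and Igfbp5, had 10.5, 8.74 and 13.2 normalized reads in HSC and 248, 373 and 383 in CCl4-fib, while NASH-fib had 266, 228 and 124. It rose by 4.82 ± 0.43 on the log2 scale in CCl4-fib (limma adjusted p = 4.37e-05) and by 4.08 ± 0.43 in NASH-fib (limma adjusted p = 0.000158). Stc2, which inhibits it, had 0 reads in all HSC libraries, 21.3 to 37.3 normalized reads in CCl4-fib and 13.8 to 35.6 in NASH-fib, which is at least 6.29-fold and at least 4.91-fold higher, taking 3 reads in the shallowest HSC library as the floor. Stc1, its relative, rose in NASH-fib against HSC (4.78 ± 1.19, limma adjusted p = 0.0233) and ranged from 0 to 17.5 in HSC and from 40.3 to 152 in NASH-fib. In CCl4-fib its difference was 3.45 ± 1.19 (limma adjusted p = 0.0533), and NASH-fib against CCl4-fib gave 1.33 ± 1.19, which did not pass.

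Adam12, a membrane protease that cuts Igfbp3 and Igfbp5, set the fibroblast groups apart. It had 162, 466 and 701 normalized reads in CCl4-fib, 24.5, 41.0 and 21.6 in NASH-fib and 78.3, 32.0 and 56.2 in HSC. NASH-fib was lower than CCl4-fib by -3.70 ± 0.59 on the log2 scale (limma adjusted p = 0.00912), with no overlap. Htra1, a secreted protease named after its values were seen, had 698 to 724 normalized reads in CCl4-fib and 494 to 645 in NASH-fib, against 29.1 to 84.2 in HSC, log2 rises of 3.94 ± 0.41 and 3.65 ± 0.41 (limma adjusted p = 9.43e-05 and 0.000226).

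**Figure D5:**
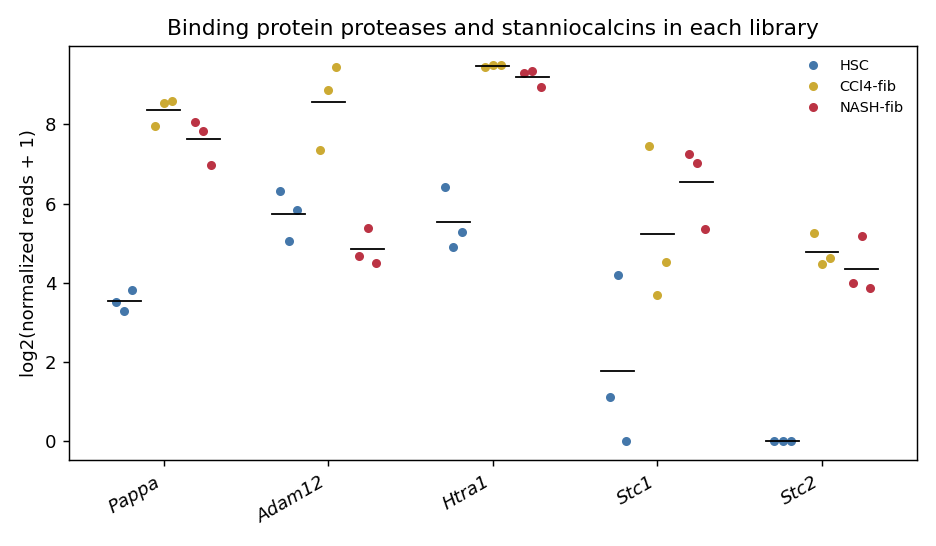
Level of binding protein proteases (Pappa, Adam12, Htra1) and stanniocalcins (Stc1, Stc2) in the 9 libraries, as log2 of normalized reads plus 1, with lines at the means of the log2 values. Adam12 is high in CCl4-fib (162 to 701 normalized reads) and low in NASH-fib (21.6 to 41.0), while Pappa is high in both.

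Downstream of the receptor, the named calls differed between comparisons. Akt1 and Akt2, kinases that carry the signal, were lower in NASH-fib than in CCl4-fib by -2.90 ± 0.56 and -2.76 ± 0.69 on the log2 scale (limma adjusted p = 0.0148 and 0.0314). Foxo1, a transcription factor that Akt restrains, and Pik3r3, a PI3K regulatory subunit, were higher by 1.31 ± 0.33 and 2.06 ± 0.52 (limma adjusted p = 0.0339 and 0.0326). In CCl4-fib against HSC, Pik3r3, Pik3ca (a PI3K catalytic subunit) and Insr (the insulin receptor) fell by 2.33, 1.55 and 1.51 (limma adjusted p = 0.00744, 0.0210 and 0.0203). Akt2, Pik3r2 and Akt1, named after their values were seen, rose there by 3.06, 2.27 and 1.83 (limma adjusted p = 0.00772, 0.0238 and 0.0331). Of 16 tested genes from PI3K to FOXO, 3 were called higher and 3 lower, beside 16.2% and 11.7% of all genes. Cish, a feedback inhibitor of cytokine and growth hormone signals, rose by 4.16 ± 0.64 (limma adjusted p = 0.000988).

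These genes also varied between libraries of 1 group. The 2 shallowest libraries, HSC 2 and NASH-fib 1, had the highest Pik3ca of their groups, 1826 and 957 normalized reads, and the lowest Akt1, 32.0 and 20.4. They also share a date-like label. Over all tested genes their deviations from the group means correlated at 0.645, the highest of any pair from different groups. CCl4-fib 1, with the same label, gave -0.072 with HSC 2 and -0.127 with NASH-fib 1. What the shared departure of HSC 2 and NASH-fib 1 contributes to the calls of this arm was not tested.

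Igf2 belongs to a group of imprinted growth genes known to be high in the fetus and low after birth, and 17 genes of that group were listed. Of the 15 tested, 4 rose and none fell in NASH-fib against HSC, 5 rose and 2 fell in CCl4-fib against HSC, and none rose and 2 fell in NASH-fib against CCl4-fib. The shares of all genes that rose and fell were 8.23% and 4.3%, 16.2% and 11.7%, and 4.97% and 5.66%. With limma, 1 had an unadjusted p under 0.05 in the lower direction in the first comparison and 3 in the higher direction in the last. H19, the non-coding neighbour of Igf2, had 0 reads in all HSC libraries and 15.9, 50.2 and 135 normalized reads in CCl4-fib, while NASH-fib had 5.44, 7.13 and 0. It was at least 15.3-fold higher in CCl4-fib than in HSC, with the floor set as for Stc2, or at least 7.56-fold without CCl4-fib 3, an alternative chosen after seeing the data. It was lower in NASH-fib than in CCl4-fib (-3.71 ± 0.99, limma adjusted p = 0.0401). Igf2 did not take the order of H19: its means were 16.0 in HSC, 7.38 in CCl4-fib and 33.6 in NASH-fib.

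Other imprinted genes called were Meg3, a non-coding RNA, which rose by 4.36 ± 0.58 in CCl4-fib and 3.43 ± 0.58 in NASH-fib against HSC (limma adjusted p = 0.000401 and 0.00269). Nnat rose by 4.18 ± 0.77 in NASH-fib and 2.54 ± 0.77 in CCl4-fib against HSC (limma adjusted p = 0.00454 and 0.0325). Peg10 rose by 2.53 ± 0.68 in NASH-fib (limma adjusted p = 0.0329), and its difference of 0.45 ± 0.68 in CCl4-fib did not pass. Igf2r, the receptor that clears Igf2, rose by 3.04 ± 0.54 in CCl4-fib (limma adjusted p = 0.00209), from 61.2 to 187 normalized reads in HSC to 860 to 1107. In NASH-fib it rose by 1.92 ± 0.54 (limma adjusted p = 0.0397), to 203 to 726. Grb10, an adaptor that restrains insulin and IGF receptors, had 1031 to 1620 in CCl4-fib and 348 to 610 in NASH-fib, a log2 difference of -1.49 ± 0.38 (limma adjusted p = 0.0346). HSC had 363 to 714, so CCl4-fib was called higher than HSC (1.53 ± 0.38, limma adjusted p = 0.0136) while NASH-fib against HSC gave 0.04 ± 0.38. Mest and Slc38a4, an amino acid transporter, fell by 3.15 and 2.39 in CCl4-fib against HSC (limma adjusted p = 0.0103 and 0.0341).

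The genes most like each member were sought over the 9 libraries by Pearson's r on the log2 scale, as a description, since the points share groups and the best of 13651 genes are close by choice. Igfbp5 was nearest to Fst, the activin antagonist follistatin (r = 0.985, Spearman's rho = 0.967), Atp6v0a4 (0.984 and 1) and Ephb1 (0.978 and 0.983). Igf1 was nearest to Tnfrsf10b (r = 0.985, rho = 0.967), the matrix proteoglycan Vcan (0.966 and 1) and Ugdh (0.962 and 0.967), which makes a precursor of matrix sugars. Nearest to Igfbp6 were Mst1r (r = 0.994, rho = 1), Arhgap44 (0.991 and 1) and Gpnmb (0.991 and 0.95). Nearest to Igfbp3 were Mapk9 (r = 0.975, rho = 0.983), A630075F10Rik (0.973 and 0.962) and 5830432E09Rik (0.967 and 0.967). For Igfbp1 they were Clec2i (r = 0.972, rho = 0.961), Slc23a1 (0.970 and 0.962) and Echdc3 (0.965 and 0.962), and for Igf2 they were Fnip2 (r = 0.963, rho = 0.95), Zfp113 (0.936 and 0.9) and Gm561 (0.922 and 0.9). Among the members themselves, Igf1 and Igfbp3 ran opposite (r = -0.911) and Igfbp1 and Igfbp2 together (r = 0.953), while the neighbours Igfbp2 and Igfbp5 gave -0.522 and Igfbp1 and Igfbp3 0.466.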

How the data were processed

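RNA amplified with the SMARTer kit was sequenced single-end on a GAIIx. Per the labels and file headers, the authors used CASAVA and STAR, aligned to mm10 and counted exon reads of RefSeq genes with HOMER on both strands. At most 3 reads per position were counted, and the counts were normalized over 10 libraries, of which 9 were analysed here. The deposited signal is reads times 1 factor per library. The values of each library summed to 4471988 to 4471995. They are thus scaled to equal library totals and do not carry DESeq2 size factors. Whole reads were recovered for 100% of values (within 0.1 read). Their totals are the depths given.

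All 9 libraries entered 1 limma fit (version 3.58.1, R 4.3.3) with a trend on log2(value + 1). Genes were kept by filterByExpr with a minimum count of 10, and p-values were adjusted by Benjamini-Hochberg over 13651 genes. Calls needed an adjusted p under 0.05 and a log2 difference of 1 or more in size. The code was tested on simulated data. Tests measure the spread between pooled libraries. The members and lists were chosen with earlier results of these data known. Named were all 10 members, the 3 called genes of each list with the largest change per direction and comparison, and the 3 genes most like each ligand and called binding protein. Proteins were not printed. Alternatives included DESeq2 1.42.0, edgeR 4.0.16, other scalings, filters and pseudocounts, covariates and each library left out.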

Additional observations from a re-analysis of the deposited data

How the results depend on the processing

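Over the alternatives, the log2 differences of the members kept their sign and their side of the threshold in 567 cases, lost the call in 44, gained one in 8 and changed sign in 15. Of the 15, 1 was a called difference, Igfbp1 in CCl4-fib against HSC, at 2.36 with the hepatocyte term. That term also turned Igfbp2 in CCl4-fib against HSC (1.01), Igfbp1 and Igfbp2 in NASH-fib against CCl4-fib (-2.74 and -1.78), Igf1r in NASH-fib against HSC (-0.04) and Igfbp4 in CCl4-fib against HSC (-0.08). The TMM scaling turned Igfbp4 in NASH-fib against HSC (0.02). Leaving out 1 library in turn gave Igf1r -0.13 to 0.32 and Igfbp4 -0.15 to 0.12 in NASH-fib against HSC, and Igfbp3 -0.01 to 0.74 and Igfbp7 -0.16 to 0.29 in NASH-fib against CCl4-fib. The causes of the moves were not tested.

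Of the 4 members called in NASH-fib against HSC, 2 stayed called with no trend in the prior spread, with the date-like label as a term and with the 2 groups alone, and 1 with only genes over an average RPKM of 100, where fewer genes were tested. In NASH-fib against CCl4-fib (1 called), DESeq2 called 2 and the hepatocyte term 0. In CCl4-fib against HSC (5 called), the RPKM filter gave 1 and the hepatocyte term 0. For the IGF axis list, NASH-fib against HSC (8) gave 2 with the date term and 5 with the hepatocyte term. NASH-fib against CCl4-fib (7) gave 12 with DESeq2, 4 with the date term and 0 with the hepatocyte term, where 7 had an unadjusted p under 0.05. CCl4-fib against HSC (17) gave 11 and, with the hepatocyte term, 0, where 11 had an unadjusted p under 0.05. The RPKM filter left no gene of this list. Over all genes, NASH-fib against HSC (1711) gave 131 with the RPKM filter and 668 with the date term. NASH-fib against CCl4-fib (1451) gave 2679 with DESeq2, 159 with the RPKM filter, 593 with the date term and 0 with the hepatocyte term, where 986 had an unadjusted p under 0.05. CCl4-fib against HSC (3801) gave 315, 2476 and 35 with the RPKM filter, date term and hepatocyte term.

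Leaving out each library in turn gave 2 to 4 members in NASH-fib against HSC and 0 to 1 in NASH-fib against CCl4-fib. The IGF axis gave 4 to 11 in NASH-fib against HSC, 1 to 9 in NASH-fib against CCl4-fib and 10 to 19 in CCl4-fib against HSC. All genes gave 212 to 1804 in NASH-fib against CCl4-fib and 2446 to 4872 in CCl4-fib against HSC, each lowest without CCl4-fib 2.

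The replicate numbers do not pair the libraries: deviations of same-numbered libraries correlated at -0.473 to 0.514 over 9 pairs, and 3 of 9 libraries correlated best with their own number. The replicate block gave 2 members and 1487 genes in NASH-fib against HSC, 4 IGF axis genes and 929 genes in NASH-fib against CCl4-fib, and 4 members in CCl4-fib against HSC. It ended the calls of Igf1 and Igfbp3 in NASH-fib against HSC and of Igfbp1 in CCl4-fib against HSC.

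The share of Igfbp5 in the binding proteins of NASH-fib, 40.4% per kilobase, was 73.9% without length correction and 64.3% without Igfbp7. Depth limits Igf2, Igfbp1 and Igfbp2, each at no more than 56 reads per library.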
